A study of Homo sapiens with 9 samples.

Results

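Genes that sense double-stranded RNA or belong to the interferon response were followed in nuclear and cytoplasmic RNA of human HEK293 cells, to ask whether siRNA against the m6A writers sets this response off. HEK293 is an embryonic kidney line transformed with adenovirus DNA, and the study's methods name the derivative of it that carries the SV40 T antigen. The genes were chosen by name: IFIT1, IFIT2, IFIT3, ISG15, IFIH1, STAT2, ADAR, EIF2AK2 and IRF3. Transcripts of 8 of these 9 genes were found, among 56349 genes with a matched transcript. No transcript of ISG15 was matched, so ISG15 was not analysed here. Messenger RNA had been sequenced in 4 groups of samples. The control nuclear group (3 samples) and the control cytoplasmic group (1 sample, replicate 2) came from cells given control siRNA. The RNAi nuclear group (3 samples) and the RNAi cytoplasmic group (2 samples, replicates 1 and 2) came from cells given siRNAs against both WTAP and KIAA1429, 2 subunits of the m6A methylase complex. KIAA1429 is listed below by its current symbol, VIRMA. All cells received siRNA at 10 nM, were transfected again at 48 hours and were harvested at 72 hours. Every group had therefore been given an RNA duplex and there was no untransfected group, so a response shared by both siRNA treatments cannot be told apart from the resting level. The labels do not say whether replicates were separate cultures, and p-values measure only the spread between these samples.

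In the textbook pathway, long double-stranded RNA in the cytoplasm is bound by sensors such as MDA5, the product of IFIH1. The signal activates the transcription factor IRF3, which turns on interferon genes. Secreted interferon acts through its receptor on STAT2 and IRF9, which are subunits of the complex ISGF3. ISGF3 binds interferon-stimulated response elements and raises IFIT1, IFIT2, IFIT3, ISG15 and many other genes. EIF2AK2 encodes the kinase PKR, which stops translation when it binds double-stranded RNA, and ADAR edits adenosines in such RNA and so keeps the cell's own duplexes from being sensed.

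The promoters show which of the 9 genes carry letters that ISGF3 and the IRF proteins recognise. The motif GAAANNGAAA was searched on both strands from 250 bases before to 50 bases from the start of each gene's canonical transcript in GRCh37. It was present in 7 of the 9 promoters and in 654 of 19894 promoters of protein-coding genes (3.29%). IRF3 and STAT2 had no match in this window. The stretches below show where the motif lies, read along the strand of the gene, with matches in capitals. A match on the opposite strand reads TTTCNNTTTC.
IFIT1 (chr10:91152254-91152296, plus strand): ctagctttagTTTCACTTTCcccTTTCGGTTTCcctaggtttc
IFIT2 (chr10:91061685-91061727, plus strand): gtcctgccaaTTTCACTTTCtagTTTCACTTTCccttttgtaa
IFIT3 (chr10:91087588-91087651, plus strand): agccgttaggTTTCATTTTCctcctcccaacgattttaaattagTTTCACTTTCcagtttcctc
ISG15 (chr1:948754-948789, plus strand): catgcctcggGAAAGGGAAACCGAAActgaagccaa
IFIH1 (chr2:163175196-163175225, minus strand): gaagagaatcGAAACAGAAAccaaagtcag
EIF2AK2 (chr2:37384110-37384139, minus strand): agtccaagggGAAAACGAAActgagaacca
ADAR (chr1:154580655-154580684, minus strand): ccgaggaaacGAAAGCGAAAttgaaccgga
The 3 IFIT promoters each had 2 matches and the ISG15 promoter had 2 that overlap. IFIH1 had 3 matches, of which the stretch nearest the start is shown. The ADAR stretch lies at the start of transcript ADAR-202, whose protein has 1226 residues in the annotation. Transcript ADAR-201, whose protein has 931 residues, starts 19782 bases further upstream, and its promoter had no match. A match describes the letters only and does not show that a factor was bound in these cells.

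The libraries held 11627403 to 19036141 estimated counts, of which 83.07% to 88.31% fell on matched transcripts, and 3 counts amounted to 0.19 to 0.303 CPM, a count relative to the size of the library. That range for 3 counts leaves out edgeR's TMM factors, whereas CPM is otherwise used below for counts scaled by them. TPM is the deposited abundance relative to the library, which accounts for transcript length. Both siRNA targets were lower after RNAi. WTAP had 23.0 to 27.6 CPM in control nuclei and 12.2 to 15.5 in RNAi nuclei, and 37.5 CPM in the control cytoplasm against 10.8 and 11.9 after RNAi. VIRMA had 13.2 to 19.8 against 5.56 to 9.18 CPM in nuclei, and 17.4 against 4.21 and 4.05 in the cytoplasm. The 5 nuclear RNAs used as fraction markers, MALAT1, NEAT1, KCNQ1OT1, TUG1 and MEG3, summed to 357 to 497 CPM in control nuclei, 522 to 536 in RNAi nuclei and 59.4 to 90.3 CPM in cytoplasmic samples. The 6 cytoplasmic markers summed to 69800 to 150000 CPM in nuclear samples, against 58200 to 98300 in the cytoplasm. Mitochondrial RNAs made up most of this sum, and MT-CO1 alone had 86300 CPM of the 150000 in control nuclear replicate 1. The sum therefore says little about the cytosolic mRNAs on the list (GAPDH, RPLP0 and EEF1A1). All 7 matched markers of HEK293 (vimentin, keratins and neurofilament among them) passed the filter on low counts, and 9 markers of leukocytes, endothelium and fibroblasts summed to 11.3 to 16.3 CPM over the 9 samples, with CD3E at 0 counts in every sample.

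The IFIT genes and IFIH1 lay near the floor in every group, while ADAR, IRF3, STAT2 and EIF2AK2 were expressed. On the TPM scale ADAR was the highest, at 57.3 to 89.1 TPM over the 9 samples, followed by IRF3 at 32.1 to 59.2, STAT2 at 5.56 to 22.0 and EIF2AK2 at 1.37 to 4.06. The ranges of ADAR and IRF3 overlapped, although ADAR was above IRF3 within each of the 9 samples, and those of IRF3, STAT2 and EIF2AK2 did not overlap. IFIT1 lay at 0.189 to 0.54 TPM. IFIT3, IFIH1 and IFIT2 lay at 0.2, 0.26 and 0.039 TPM or less.

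**Figure D1:**
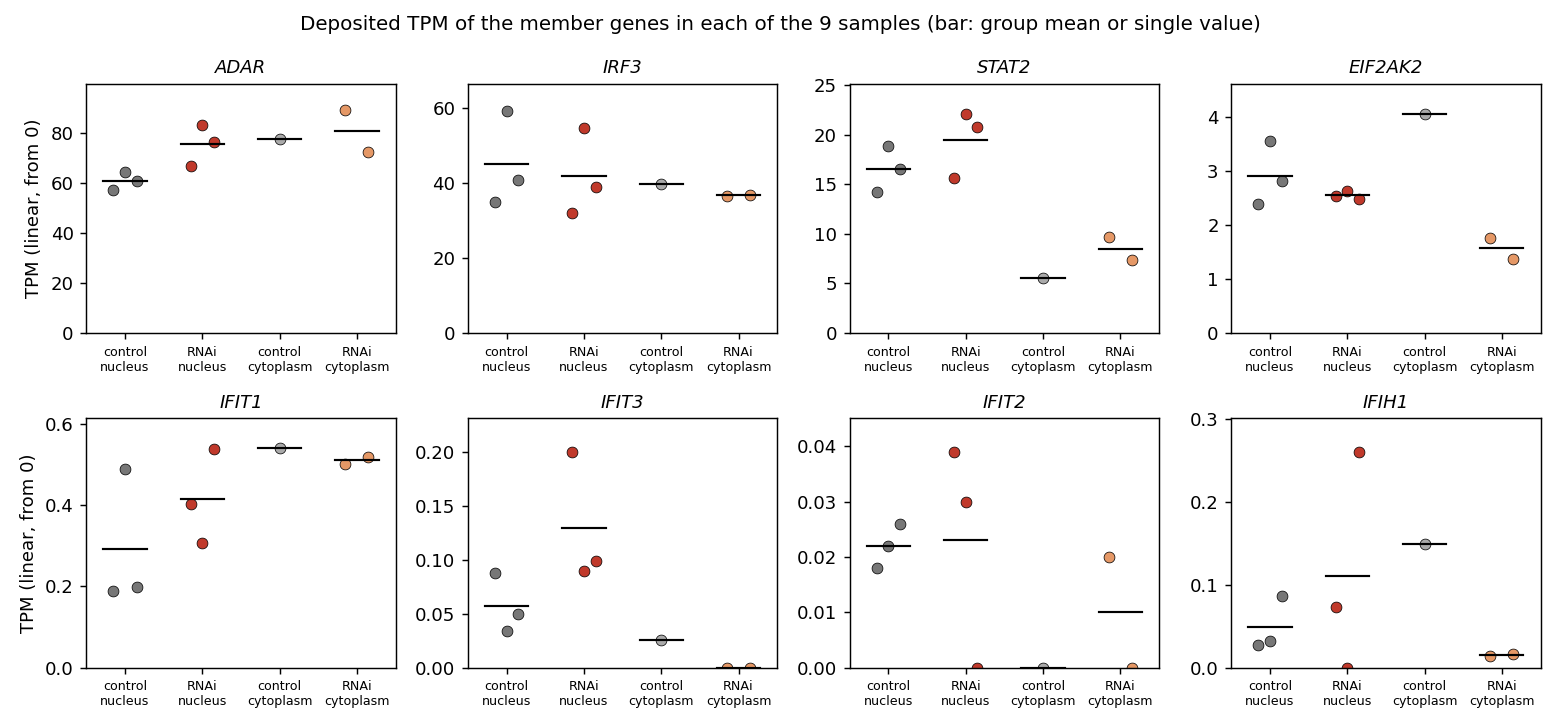
TPM of the 8 genes with a matched transcript (linear axis from 0, its own scale in each panel) in the 4 groups, with a point per sample and a bar at the group mean, or at the single control cytoplasmic value. ADAR, IRF3, STAT2 and EIF2AK2 are in the upper row; the lower row holds IFIT1, at most 0.54 TPM, and the 3 genes too low to judge.

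Of the antiviral effectors, IFIT1, which binds RNA ends that lack the marks of host caps, was the only IFIT gene with enough counts for a test. It had 8, 13 and 6 estimated counts in control nuclei, 12, 8 and 15 in RNAi nuclei, 16 in the control cytoplasm and 16 and 12 in the RNAi cytoplasm. The nuclear groups overlapped. IFIT1 had at least 10 counts in 6 samples, and no single sample of either treatment stood above 16 counts. IFIT2, whose protein works in a complex with IFIT1 and IFIT3, had 1 count in each control nuclear sample and 2, 1 and 0 in the RNAi nuclear samples, 0 in the control cytoplasm and 1 and 0 after RNAi. IFIT3, which binds and stabilises IFIT1, had 3.25, 1.04 and 1.33 counts in control nuclei, 6.94, 2.07 and 3.07 in RNAi nuclei, 1.02 in the control cytoplasm and 0 in both RNAi cytoplasmic samples. The nuclear groups of IFIT3 overlapped in counts but not in TPM (0.034 to 0.088 in control nuclei, 0.09 to 0.2 in RNAi nuclei). Both IFIT2 and IFIT3 were too low to judge. The sensor gene IFIH1 was also too low, with 0.62, 0.6 and 1.43 counts in control nuclei, 1.58, 0 and 5 in RNAi nuclei, 3.73 in the control cytoplasm and 0.3 and 0.29 after RNAi. Only 2 of its 8 annotated transcripts were listed, without its canonical transcript, and the counts came from a listed transcript of 1617 nt. The values of IFIH1 therefore say little about the sensor's full mRNA.

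In the nucleus, where each group had 3 samples, none of the 5 tested members (IFIT1, EIF2AK2, ADAR, IRF3 and STAT2) passed both thresholds, a log2 fold change beyond 0.5 in size and an FDR under 0.1 (edgeR, quasi-likelihood, adjusted by Benjamini-Hochberg over all genes tested). Over the 16181 genes tested, 4.89% passed. DESeq2 also called 0 of the 5 members. In edgeR 3 of the 5 had an unadjusted p under 0.05, as had 3370 of the 16181 genes. IFIT1 had a log2 fold change of 0.43 (SE 0.35, FDR 0.524), with a 95% interval from 0.79-fold to 2.3-fold. It was higher in all 3 RNAi nuclei than in control replicates 1 and 3 (0.549 and 0.531 CPM) but not than in control replicate 2 (0.886 CPM), the RNAi values being 0.835, 0.741 and 1.09 CPM.

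The sensor and editing enzymes showed small nuclear differences of opposite sign. EIF2AK2, the PKR gene, had 26.9, 28.7 and 28.9 CPM in control nuclei and 23.7, 24.7 and 24.0 in RNAi nuclei. The groups did not overlap in CPM but did in TPM (2.38 to 3.55 in control nuclei, 2.47 to 2.64 in RNAi nuclei). The log2 fold change of -0.22 (SE 0.095, FDR 0.216) was under the fold threshold. ADAR had 342, 343 and 335 CPM in control nuclei against 371, 409 and 393 after RNAi. These groups did not overlap in CPM or TPM, with a log2 fold change of 0.20 (SE 0.079, FDR 0.179) and a 95% interval from 1.02-fold to 1.3-fold. The share of all tested genes whose nuclear groups do not overlap is not given here, so a lack of overlap only describes the values.

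Neither transcription factor passed in the nucleus with all transcripts summed. STAT2, the ISGF3 subunit, had 33.0, 28.7 and 31.2 CPM in control nuclei and 33.7, 38.5 and 37.5 in RNAi nuclei, without overlap (log2 fold change 0.24, SE 0.10, FDR 0.226). Its groups overlapped in TPM (14.2 to 18.8 in control nuclei, 15.6 to 22.0 in RNAi nuclei). With protein-coding transcripts only, STAT2 passed both thresholds in the nucleus (log2 fold change 0.51, FDR 0.0993). IRF3 had 38.0, 48.3 and 40.0 CPM in control nuclei and 33.4, 44.2 and 37.8 after RNAi, which overlap (log2 fold change -0.13, SE 0.14, FDR 0.614). IRF3 shares 734 exon bases with BCL2L12 on the opposite strand, and since the strand setting of the estimates was not given in the sources used here, reads of the pair may not have been told apart. The 9 fits that left out a sample in turn also called 0 of the 5 members in the nucleus. The nuclear marker RNAs NEAT1 and KCNQ1OT1 were higher in RNAi nuclei (log2 fold changes 0.52 and 0.79, FDR 0.0297 and 0.0233), and their part in the nuclear differences was not tested.

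In the cytoplasm, where a single control sample faced 2 RNAi samples, EIF2AK2 was lower and STAT2 was higher after RNAi. These were 2 of the 5 tested members, in a comparison in which 24.6% of all tested genes passed both thresholds. EIF2AK2 had 43.0 CPM in the control cytoplasm and 19.9 and 19.0 in the RNAi samples. The level thus fell to 0.453-fold (log2 fold change -1.14, SE 0.14, FDR 0.00111). On the TPM scale the same samples gave 4.06, 1.77 and 1.37. STAT2 had 16.4 CPM in the control cytoplasm and 34.2 and 31.0 after RNAi, a rise to 1.99-fold (log2 fold change 0.99, SE 0.17, FDR 0.00381). On the TPM scale STAT2 had 5.56 against 9.67 and 7.36, and it missed the thresholds in limma fits on log2(TPM + 1) and log2(TPM + 0.1), while EIF2AK2 passed in both.

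The other members did not pass in the cytoplasm in the main fit. ADAR had 436 CPM against 590 and 562 (log2 fold change 0.40, SE 0.12, FDR 0.0387), under the fold threshold although the FDR passed. IRF3 had 40.9 CPM against 48.1 and 56.9 (log2 fold change 0.36, SE 0.20, FDR 0.249), and its sign turned in both limma fits on TPM (-0.12). With the replicate number as a block in the edgeR fit, IRF3 passed (0.52, FDR 0.0193). IFIT1 had 0.974 CPM against 1.25 and 1.31 (log2 fold change 0.39, SE 0.47, FDR 0.606), with a 95% interval from 0.64-fold to 2.69-fold. The spread used for the control sample came from the replicated groups, so a peculiarity of that library cannot be told apart from an effect of the RNAi. The 5 nuclear marker RNAs summed to 90.3 CPM in the control cytoplasm and to 66.0 and 59.4 CPM after RNAi, and their part in the cytoplasmic differences was not tested. Less RNA of a gene per cell and fewer cells expressing it cannot be told apart in such samples.

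**Figure D2:**
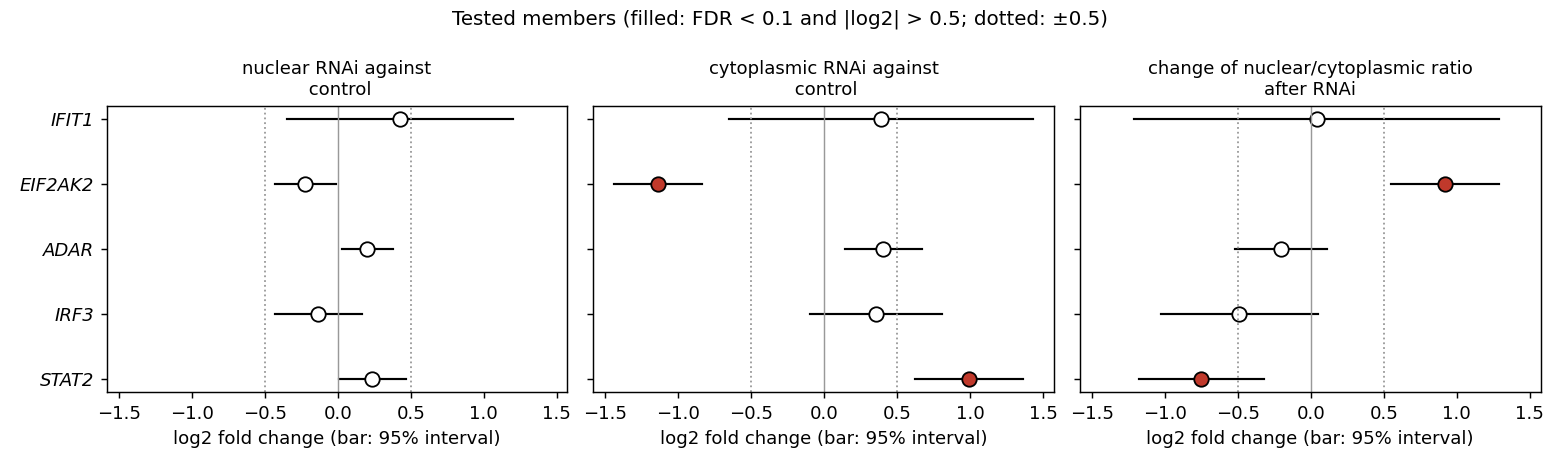
Log2 fold change of the 5 tested members (points) with 95% intervals (bars) for RNAi against control in each fraction, and for the change of the nuclear/cytoplasmic ratio. Filled points passed both thresholds and dotted lines mark a log2 fold change of 0.5 in either direction; the nuclear panel has no filled point, and EIF2AK2 and STAT2 are filled in the other panels with opposite signs.

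EIF2AK2 and STAT2 also changed in their nuclear/cytoplasmic ratio. The study's own contrast sets the nuclear/cytoplasmic ratio of RNAi cells against that of control cells, and 18.2% of all tested genes passed it. The ratio of EIF2AK2 was raised (log2 change 0.92, SE 0.17, FDR 0.00962) and that of STAT2 was lowered (log2 change -0.75, SE 0.19, FDR 0.034). The ratio uses the same control cytoplasmic sample as the cytoplasmic comparison, so it is no separate evidence. The STAT2 ratio missed the thresholds with library size as the only scaling, with the transcript length offset, with protein-coding transcripts only and in both limma fits, and the EIF2AK2 ratio missed them in both limma fits. IRF3 had a log2 change of -0.49 (SE 0.24, FDR 0.223), ADAR -0.20 (SE 0.14, FDR 0.387) and IFIT1 0.04 (SE 0.56, FDR 0.976), and these 3 did not pass. With the replicate block the IRF3 ratio passed (-0.65, FDR 0.0223). ADAR had 0.08 there with library size as the only scaling.

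In control cells, EIF2AK2 RNA was relatively more cytoplasmic and STAT2 RNA more nuclear. Nucleus against cytoplasm, EIF2AK2 had a log2 fold change of -0.61 (SE 0.13, FDR 0.00299) and STAT2 0.91 (SE 0.16, FDR 0.00111), and 50.8% of all tested genes passed this comparison. In RNAi cells neither passed, with 0.31 for EIF2AK2 (SE 0.11, FDR 0.0317) and 0.16 for STAT2 (SE 0.12, FDR 0.258). ADAR passed there with -0.56 (SE 0.087, FDR 0.000344), in a comparison that 57.8% of all genes passed, and had -0.36 in control cells (SE 0.11, FDR 0.0205). The ADAR call was lost with library size as the only scaling (-0.28), with at least 10 counts required in every sample (-0.37), with protein-coding transcripts only (-0.31) and in both limma fits (-0.09). IRF3 had -0.45 in RNAi cells (SE 0.15, FDR 0.0244), and it passed, with 2 members then called, when RNAi nuclear replicate 2 or RNAi cytoplasmic replicate 1 was left out (up to -0.57). IFIT1 had about the same value in both treatments, -0.51 after RNAi (FDR 0.252) and -0.55 in the control (FDR 0.343).

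Among the ADAR transcripts, ADAR-202 differed more in nuclei than the gene as a whole. ADAR-201, the transcript without the motif at its start and the source of the shorter, constitutive protein known as p110, held 59.3% to 80.4% of the TPM of the gene. It had 38.4, 51.8 and 42.7 TPM in control nuclei and 41.1, 49.3 and 47.4 in RNAi nuclei, which overlap. ADAR-202, which starts at the motif shown above and encodes the longer, interferon-inducible form known as p150, had 5.09, 4.44 and 4.06 TPM in control nuclei. In RNAi nuclei it had 9.44, 12.9 and 10.2 TPM, so every RNAi nucleus was above every control nucleus (exact two-sided permutation test p = 0.1, the smallest that 3 against 3 samples allow). In the cytoplasm ADAR-202 had 7.21 TPM in the control and 8.5 and 8.87 after RNAi.

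An edgeR fit on single transcripts, added after these values had been seen, gave ADAR-202 a nuclear log2 fold change of 1.16 (SE 0.17, 95% interval 0.76 to 1.56, FDR 0.13). This missed the FDR threshold, and edgeR called 0 of the 44726 transcripts tested in the nucleus (0% background), with 4416 at an unadjusted p under 0.05. DESeq2 called 1270 transcripts there, ADAR-202 among them (log2 fold change 1.2, FDR 1.85e-07). When each sample was left out in turn, the edgeR value for ADAR-202 stayed between 1.07 and 1.35 with FDRs from 0.13 to 0.409. ADAR-201 had -0.02 in the nucleus (SE 0.069, FDR 0.977). In the cytoplasm ADAR-202 had 0.47 (SE 0.26, FDR 0.448), and the change of its nuclear/cytoplasmic ratio of 0.69 (SE 0.30, FDR 0.385) did not pass. ADAR-202 and ADAR-201 share 6405 exon bases, with 205 bases of ADAR-202 not in ADAR-201 and 26 in no other listed transcript, and the uncertainty of dividing the reads is not in these errors. ADAR-208, described next, had 0.46 in the nucleus (SE 0.41, FDR 0.816).

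Other ADAR transcripts differed by fraction. ADAR-208 starts 16 bases from ADAR-202, also has the motif in its promoter and encodes 1200 residues in the annotation, so it too is a long form. It was listed with 3585 nt, less than in the newer annotation, and had 1.9 to 6.69 TPM in nuclei and 11.9 to 22.2 TPM in the cytoplasm. Its nuclear groups overlapped (4.78, 1.9 and 4.34 TPM in control nuclei, 4.61, 6.69 and 5.31 in RNAi nuclei). The control cytoplasm had 16.6 TPM of it, between the RNAi values of 22.2 and 11.9. The 3 transcripts annotated with a retained intron were nuclear, at 8.45, 6.23 and 7.83 TPM in control nuclei and 10.8, 12.5 and 13.7 in RNAi nuclei, against 0.75 to 0.86 TPM in the cytoplasm. Every RNAi nucleus was above every control nucleus (exact two-sided permutation test p = 0.1), and the 3 transcripts had nuclear FDRs from 0.544 to 0.827 in the single-transcript fit described above. The nuclear marker RNAs, which were also higher in RNAi nuclei, move with this sum, and their part in it was not tested.

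**Figure D3:**
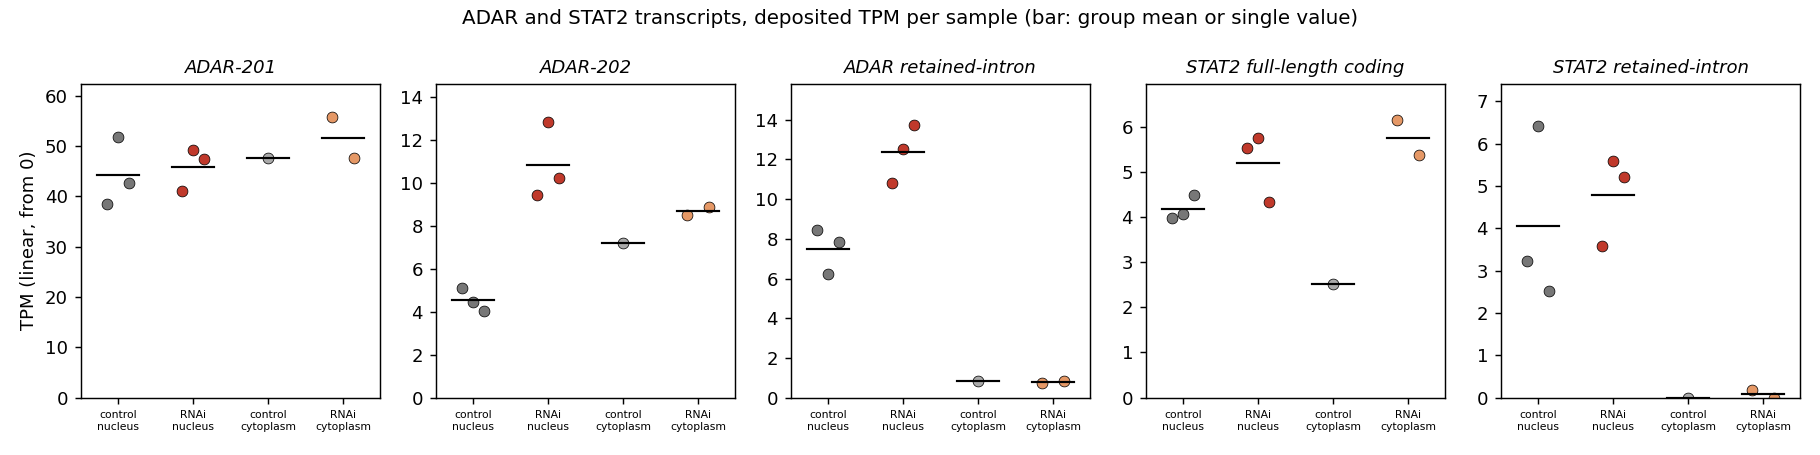
TPM (linear axis from 0) of ADAR-201, ADAR-202, the summed retained-intron transcripts of ADAR, the full-length coding transcript of STAT2 and the summed retained-intron transcripts of STAT2, with a point per sample in the 4 groups and a bar at the group mean or single value. The ADAR-202 points of the RNAi nuclei (9.44 to 12.9) lie above those of the control nuclei (4.06 to 5.09), while the ADAR-201 points overlap.

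Of the tested STAT2 transcripts, only the full-length coding one was called in the cytoplasm, and it has 0 bases that are in no other listed transcript. Its value therefore depends on how reads shared between transcripts were divided, and that uncertainty is not in the errors below. The full-length coding transcript of STAT2, with 851 residues, had 2.52 TPM in the control cytoplasm and 6.14 and 5.38 after RNAi, and 3.98, 4.07 and 4.48 in control nuclei against 5.52, 5.75 and 4.33 in RNAi nuclei. In the single-transcript fit it rose in the cytoplasm (log2 fold change 1.38, SE 0.28, FDR 0.0774), where 2.84% of transcripts passed, and had 0.24 in the nucleus (SE 0.17, FDR 0.75). The cytoplasmic call was kept without control nuclear replicate 2 (FDR 0.074) and lost without any other nuclear sample or either RNAi cytoplasmic sample (FDR up to 0.145, log2 fold change 1.36 to 1.4). A pair of transcripts without a defined reading frame, of 3278 and 717 nt, had 1.4 and 0.14 TPM in the control cytoplasm and 3.42 to 4.79 and 1.91 to 3.77 TPM in nuclei. After RNAi the transcript of 3278 nt had 1.99 and 1.81 TPM in the cytoplasm (log2 fold change 0.64, SE 0.27, FDR 0.337) and that of 717 nt had 0.31 and 0.17 (0.97, SE 0.86, FDR 0.829). Another coding transcript, with 847 residues, had 1.06 TPM in the control cytoplasm and 1.06 and 0 after RNAi (-0.87, SE 2.5, FDR 0.963). The 5 retained-intron transcripts of STAT2 were at 2.52 to 6.42 TPM in nuclei and at most 0.18 TPM in the cytoplasm.

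A single transcript, with a reading frame of 551 residues, held 87.6% to 100% of the TPM of EIF2AK2 and carried its cytoplasmic fall, from 4.06 TPM to 1.64 and 1.37 (log2 fold change -1.23, SE 0.14, FDR 0.0324 in the single-transcript fit). IRF3 was spread over 31 listed transcripts. Of those above 10% of its TPM, a coding transcript of 427 residues had 5.34 TPM in the control cytoplasm and 14.6 and 11.6 after RNAi (log2 fold change 1.47, SE 0.65, FDR 0.352), and a coding transcript of 300 residues had 6.25 against 5.91 and 7.06. Both have 0 bases that are in no other listed transcript, so their values also depend on how shared reads were divided. Summed over its transcripts, IRF3 went from 39.9 TPM to 36.5 and 36.96 in the cytoplasm while its CPM was higher after RNAi, and the cause was not tested. IFIT1 was divided between transcripts with reading frames of 447 residues (51.3% of its TPM on average) and 478 residues (48.7%).

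Of 57 other interferon-stimulated genes, 25 were too low to test and 32 were tested. In the nucleus 2 rose and 2 fell after RNAi, with 16 of the 32 above 0 and a median log2 fold change of 0.00, as over all tested genes (0.00). For comparison, 2.47% of all tested genes were called higher and 2.42% lower in the nucleus. IFI35, an interferon-induced protein, had 2.34, 1.98 and 1.86 CPM in control nuclei and 3.62, 6.02 and 5.09 after RNAi (log2 fold change 1.24, SE 0.23, FDR 0.0297). TRIM21, a ubiquitin ligase that recognises antibody-bound virus, had 2.75, 2.04 and 2.3 CPM against 3.41, 5.28 and 4.58 (log2 fold change 0.89, SE 0.23, FDR 0.0586). LY6E, a membrane-anchored surface protein, fell from 169, 156 and 157 CPM to 95.3, 116 and 99.1 (log2 fold change -0.64, SE 0.094, FDR 0.0146). SP100, a nuclear body protein, fell with a log2 fold change of -2.76 (SE 0.69, FDR 0.0577), and its control values were uneven (3.09, 24.6 and 9.11 CPM, against 1.46, 3.15 and 1.02). Without control nuclear replicate 2, the SP100 change was -1.72 (FDR 0.0937).

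In the cytoplasm 5 of the 32 rose and 0 fell (2 were lower at an unadjusted p under 0.05 in edgeR, and DESeq2 also called 5 and 0), against 10.4% of all tested genes called higher and 14.2% lower. The median of the 32 was 0.19, against 0.01 for all tested genes. IFI35 had 2.25 CPM in the control and 7.71 and 8.86 after RNAi (log2 fold change 1.87, SE 0.35, FDR 0.00539). LGALS3BP, a secreted glycoprotein, went from 31.4 CPM to 73.0 and 59.3 (1.08, SE 0.21, FDR 0.00649), HELZ2, a helicase-like coactivator, from 10.4 to 19.9 and 18.3 (0.88, SE 0.20, FDR 0.0138) and PML, which builds nuclear bodies, from 112 to 209 and 191 (0.84, SE 0.13, FDR 0.00274). Among the 25 genes too low to test, chosen after their values were seen, CXCL10, CXCL11 and IFI16 had 0 counts in all 9 samples, IFI44 had 1 count in a single sample and RSAD2 had 7.1 counts or fewer. Not all of the 25 were so low, and EPSTI1 reached 14 counts in a sample. SAMD9 had 1, 1 and 2 counts in control nuclei and 5, 5 and 10 in RNAi nuclei. By contrast, IFI27 had 5.66, 2.5 and 3 counts in control nuclei and 1, 1 and 3 in RNAi nuclei. Such counts are too few to judge either way. The counts of all 57 genes summed to 1040 to 1200 CPM in control nuclei and to 986 to 995 in RNAi nuclei, and to 1030 CPM in the control cytoplasm against 1400 and 1360 after RNAi.

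No interferon transcript was seen in quantity. IFNB1, IFNA1 and IFNL2 were at 0 counts in all 9 samples, and IFNA2, IFNL1 and IFNL3 had at most 2 counts in any sample. A count of 0 allows up to 3 counts per sample, or 0.19 to 0.303 CPM before TMM scaling, which covers counting error only. Of the 20 genes for interferons, their receptors and the ISGF3 pathway, 14 were tested. In the nucleus edgeR and DESeq2 called 0 of the 14, and 4 had an unadjusted p under 0.05 in edgeR, 1 higher and 3 lower. Over all tested genes, edgeR called 4.89% there. The most abundant were JAK1, a kinase bound to the receptors (48.7 to 55.5 CPM in nuclei), IFNGR2, a subunit of the gamma interferon receptor (29.3 to 33.0 CPM), and TYK2, another such kinase (23.6 to 32.0 CPM).

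In the cytoplasm 3 of these 14 rose and 1 fell, against 10.4% and 14.2% of all tested genes. IRF9, the ISGF3 partner of STAT2, had 0.852 CPM in the control and 1.56 and 2.08 after RNAi (log2 fold change 1.06, SE 0.39, FDR 0.0776). TYK2, the kinase that binds IFNAR1, rose from 16.5 CPM to a mean of 32.0 (0.95, SE 0.23, FDR 0.0166), and IL10RB, a subunit of the lambda interferon receptor, from 9.86 to 16.1 and 14.9 (0.66, SE 0.20, FDR 0.0425). IFNAR1, a subunit of the alpha and beta interferon receptor, fell from 17.8 CPM to 7.48 and 7.11 (-1.28, SE 0.18, FDR 0.00214). IRF9 lost its call without control nuclear replicate 3, any RNAi nuclear sample or RNAi cytoplasmic replicate 2 (FDR up to 0.271), and IL10RB without RNAi cytoplasmic replicate 1 or 2 (up to 0.115).

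Other proteins that bind double-stranded RNA moved in both directions. RIGI and OAS1 had at most 0.2 counts in any sample, and 7 of the 17 genes in this group were too low to test. In the nucleus 2 of the 10 tested genes rose and 0 fell (1 was lower at an unadjusted p under 0.05 in edgeR, and DESeq2 called 1 and 0). Over all tested genes, 2.47% were called higher and 2.42% lower there. OAS3, whose product makes the oligoadenylate that activates RNase L, had 1.65, 1.23 and 0.885 CPM in control nuclei and 3.41, 2.04 and 2.47 after RNAi (log2 fold change 1.06, SE 0.32, FDR 0.0946), and 1.83 CPM in the control cytoplasm against 3.19 and 5.03 (1.15, SE 0.45, FDR 0.0993). DHX36, a helicase that unwinds G-quadruplexes, rose in the nucleus from 11.4, 8.79 and 10.4 CPM to 16.1, 19.5 and 16.3 (0.76, SE 0.14, FDR 0.0277) and fell in the cytoplasm from 16.9 CPM to 8.1 and 7.87 (-1.08, SE 0.21, FDR 0.00621). DHX9, another helicase, also fell in the cytoplasm (-0.66, SE 0.13, FDR 0.00668). DHX36 kept its cytoplasmic call whichever sample was left out.

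Among the 17 genes that relay the signal from sensors, 16 were tested. In the nucleus TICAM1, the adaptor of the endosomal sensor TLR3, was the only one called, rising from 18.5, 17.4 and 17.3 CPM to 25.9, 29.7 and 25.3 (log2 fold change 0.60, SE 0.11, FDR 0.0265). Of all tested genes, 2.47% were called higher and 2.42% lower in that comparison. In the cytoplasm 4 of the 16 rose and 2 fell, against 10.4% and 14.2% of all tested genes. TBK1, the kinase that activates IRF3, fell from 3.1 CPM to 0.857 and 0.656 (-2.0, SE 0.47, FDR 0.0159), and TANK, which binds it, from 9.86 to 4.13 and 3.94 (-1.29, SE 0.32, FDR 0.0186). NLRX1, a mitochondrial regulator of the pathway, rose from 33.0 CPM to 58.8 and 51.7 (0.75, SE 0.16, FDR 0.0113). MYD88, an adaptor of Toll-like receptors, rose from 2.07 CPM to 6.93 and 3.39 (1.34, SE 0.52, FDR 0.0988), and it lost its call without RNAi cytoplasmic replicate 1 or any nuclear sample but control replicate 2 (FDR up to 0.402).

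Of 12 NF-kB targets, 7 were tested. In the nucleus, where 2.47% of all tested genes were called higher and 2.42% lower, RELB, itself an NF-kB subunit, was the only one called. It had 0.412, 0.954 and 0.354 CPM in control nuclei and 1.74, 3.71 and 4.36 in RNAi nuclei (log2 fold change 2.45, SE 0.49, FDR 0.033). In the cytoplasm NFKB2, the precursor that pairs with RELB, rose from 33.7 CPM to 51.4 and 49.3 (0.58, SE 0.14, FDR 0.0167), and the cytokine genes IL6, TNF, CXCL8 and CCL2, named after their values were seen, had at most 8 counts in any sample. Of 8 genes around EIF2 alpha, the PKR substrate, edgeR and DESeq2 called 0 in the nucleus, where 1 was lower at an unadjusted p under 0.05 in edgeR. Over all tested genes, edgeR called 4.89% in the nucleus. Of the 8, 2 fell in the cytoplasm, where 14.2% of all tested genes were called lower. EIF2S1, which encodes EIF2 alpha, went from 31.3 CPM to a mean of 15.1 (-1.05, SE 0.18, FDR 0.00424), and DNAJC3, an inhibitor of PKR, from 11.3 to 4.91 and 5.79 (-1.08, SE 0.27, FDR 0.0201).

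The nuclear calls among these lists did not outlast the loss of single samples. Of the 8 calls, 0 were kept in all fits that left out a sample, though each kept its sign. Calls over all genes in the nucleus fell from 792 to 88, 106 and 52 without control replicate 3, RNAi replicate 2 or RNAi replicate 3. Without control replicate 3 or RNAi replicate 2 or 3, DHX36, TICAM1, IFI35, TRIM21 and RELB missed the FDR, at up to 0.122, 0.123, 0.139, 0.204 and 0.14. Over all fits that left out a sample, their log2 fold changes lay at 0.66 to 0.85 for DHX36, 0.53 to 0.65 for TICAM1, 1.07 to 1.42 for IFI35, 0.75 to 1.05 for TRIM21 and 2.17 to 3.04 for RELB. LY6E missed it without RNAi replicate 3 (0.109), SP100 without control replicate 3 or any RNAi nuclear sample (up to 0.213) and OAS3 without control replicate 2 or 3 or any RNAi nuclear sample (up to 0.276). In the cytoplasm 14 of 18 named calls were kept in every such fit, and 7 of the 18 in every alternative tried. Besides MYD88, IRF9 and IL10RB, OAS3 lost its call without control nuclear replicate 3, any RNAi nuclear sample or RNAi cytoplasmic replicate 2 (FDR up to 0.351).

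**Figure D4:**
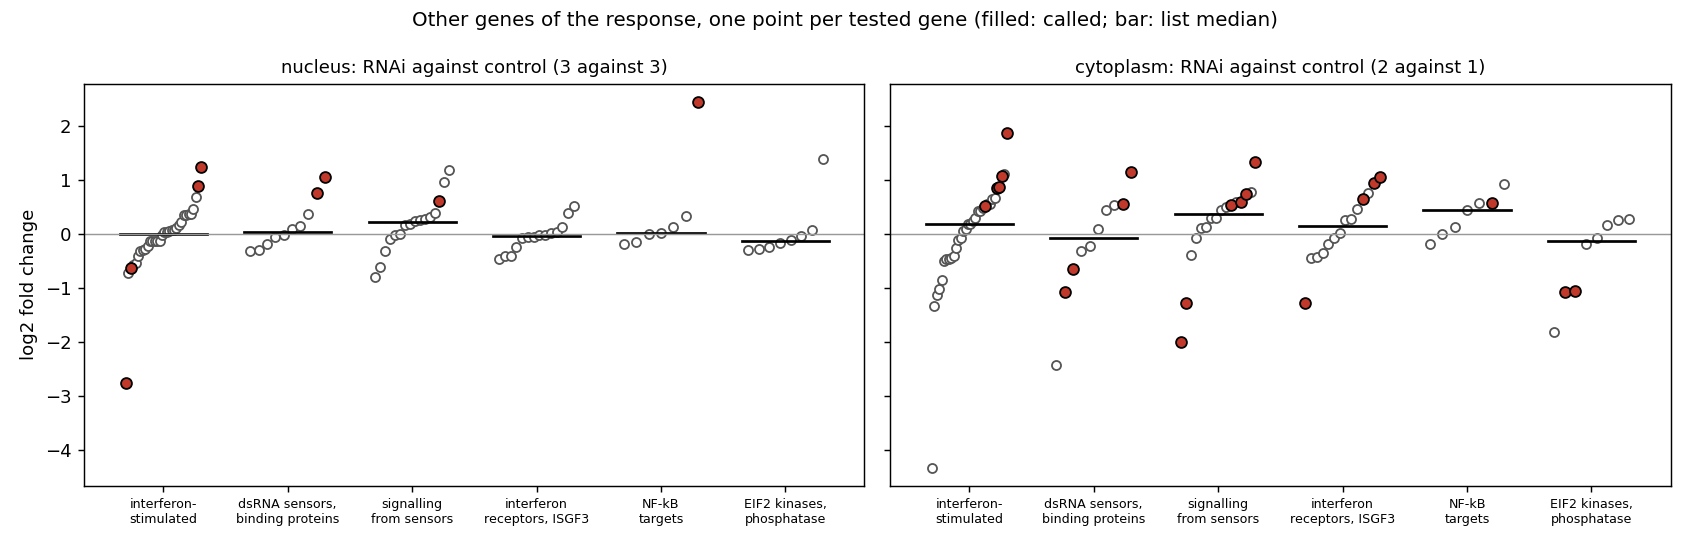
Log2 fold change of RNAi against control (vertical axis) for the tested genes of 6 lists, in the nucleus (left) and in the cytoplasm (right), with a point per gene, filled where both thresholds were passed, and a bar at the list median. Nuclear medians of the lists lie between -0.14 and 0.22; the lists hold 8 filled points in the nucleus and more in the cytoplasm, where the control is a single sample.

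The genes whose pattern over the 9 samples was most like each tested member were found by the root mean square (RMS) difference of log2 CPM, centred on each gene's mean. ADAR was nearest to GTF3C2 and CHAF1B (RMS 0.045 and 0.048), and IRF3 to ABCF1 and CCAR2 (0.037 and 0.039). STAT2 was nearest to CSPG5 and PLCXD1 (0.076 and 0.081), EIF2AK2 to BUB1 and SIX4 (0.087 and 0.099) and IFIT1 to KCNIP2-AS1 and TSFM (0.105 and 0.114). None of these genes is on the lists used here, and the SDs of the members themselves were 0.231 for IRF3 to 0.394 for IFIT1. The points share libraries, so likeness is a description of these 9 samples.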

How the data were processed

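Nuclear and cytoplasmic RNA of 9 samples was sequenced from SENSE mRNA libraries. The authors trimmed reads with cutadapt and quantified Ensembl v75 transcripts (hg19) with Salmon; tool versions and the strand setting were not given in the sources used here. The deposited files give an estimated count and a TPM value for each of 215170 transcripts, of which 183122 (85.1%) matched GENCODE release 44 lifted to GRCh37 by identifier and were summed to 56349 genes. Such counts depend on how Salmon divides reads between transcripts, and a gene with no transcript matched by identifier, as for ISG15, gets no value here. As with IFIH1, the canonical transcript of some other named genes was not listed, MYD88, NFKB2, WTAP, IFI27, KCNQ1OT1 and TUG1 among them. Their values come from other listed transcripts only.

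Estimated counts were rounded and tested with edgeR's quasi-likelihood test (edgeR 4.0.16 in R 4.3.3, TMM factors), with the 9 samples in 4 groups, 5 residual degrees of freedom and genes with at least 10 counts in at least 3 samples (16181 genes). Genes were called at a log2 fold change beyond 0.5 in size and a Benjamini-Hochberg FDR under 0.1. Standard errors and 95% intervals come from the same fit, so the spread is shared over groups. Alternatives used DESeq2 1.42.0, limma 3.58.1 on log2(TPM + pseudocount), other scalings, filters and transcript sets, a replicate block, and each sample left out; the control cytoplasmic sample cannot be left out where a contrast needs it. Tested on simulated data for the nuclear comparison over 16181 genes, the edgeR step recovered 97% of 200 genes changed by a log2 value of 2. The simulation gave every gene the same dispersion and held no smaller changes. It therefore does not show how often changes as small as those of the members in the nucleus would be called. The single-transcript fit was chosen after the data had been seen. Replicates had Pearson correlations of log values from 0.9723 to 0.9861 and differed by more than sampling noise.

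The members and gene lists were chosen with earlier results of these data known. Named from each list were up to 4 called genes of largest change per comparison or, with none called, up to 3 of highest CPM, and for each tested member the 2 genes of nearest pattern. Transcripts named hold at least 10% of a gene's TPM; retained-intron transcripts were named after their values were seen. Some genes of the lists are not reported here by name. Floors of 3 counts cover counting error only.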

Additional observations from a re-analysis of the deposited data

Results flagged for a closer look

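The results below stood out because RNAi changed a gene by different amounts in the nucleus and the cytoplasm, by edgeR's test of that difference over all 9 samples (FDR under 0.1). Each value is the log2 change of the nuclear/cytoplasmic ratio after RNAi, positive where the ratio rose, and all of them use the single control cytoplasmic sample. A change of the ratio does not show that RNA moved between the fractions. WTAP and EIF2AK2 were lower after RNAi in both fractions and more so in the cytoplasm, while DHX36 rose in the nucleus and fell in the cytoplasm. Among the members these were EIF2AK2 (0.92, FDR 0.00962) and STAT2 (-0.75, FDR 0.034). Of the siRNA targets, WTAP was at 0.89. The ratio also rose for the helicase DHX36 (1.84), the kinase TBK1 (1.98) and its partner TANK (1.55), the receptor subunit IFNAR1 (0.81), the STAT inhibitor PIAS1 (0.74) and the translation factor gene EIF2S1 (0.81). The ratio fell for MYD88 (-2.13), NLRX1 (-0.84), IRF9 (-1.48), TYK2 (-0.82), LGALS3BP (-1.37), LY6E (-1.06), HELZ2 (-1.0), IFITM1 (-0.80), NFKB2 (-0.72) and PPP1R15A (-0.55). Of these 16 genes outside the members and siRNA targets, 8 kept the call with each sample left out that could be, and DHX36 alone in every alternative tried. TBK1, MYD88, IRF9, TYK2, PIAS1, IFNAR1, IFITM1 and PPP1R15A lost it without a sample. For comparison, 18.2% of all tested genes passed this test. The part of the marker RNAs or of the single control cytoplasmic library in these differences was not tested.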

How the results depend on the processing

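Of 1447 recomputed values for single genes and transcripts, 1184 kept their direction and their side of both thresholds, 225 lost a call, 13 gained one and 25 changed sign. The number of the 5 tested members called in the nucleus was 0 and became 1 with protein-coding transcripts only. In the cytoplasm 2 became 1 in both limma fits. For the nuclear/cytoplasmic ratio, 2 became 1 with library size only, with the length offset and with protein-coding transcripts, and 0 in both limma fits. For nucleus against cytoplasm in RNAi cells, 1 became 3 without a filter, 0 with at least 10 counts in every sample, and 2 with the length offset and in limma on log2(TPM + 0.1). In control cells 2 became 0 with protein-coding transcripts only and 1 in both limma fits. With a sample left out these counts were 0 to 0 in the nucleus, 2 to 2 in the cytoplasm, 2 to 2 for the ratio, 1 to 2 in RNAi cells (2 without RNAi nuclear replicate 2 or RNAi cytoplasmic replicate 1) and 2 to 2 in control cells. The causes of these changes were not tested.

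Values that changed sign were uncalled ones, except that of TYK2. In the limma fits on log2(TPM + 1) and log2(TPM + 0.1), cytoplasmic IFIT1 had -0.028 and -0.069 and IRF3 -0.117 and -0.12; the ratio of ADAR had 0.26 and 0.26, that of IRF3 0.0165 and 0.0171, and that of TYK2 0.29 and 0.30; IRF3 in RNAi cells had 0.15 and 0.15. The ADAR ratio had 0.083 with library size only, STAT2 in RNAi cells -0.0768 with protein-coding transcripts, and IRF3 in control cells -0.0703 without a filter and -0.0604 to 0.0995 with a sample left out. The IFIT1 ratio ranged from -0.14 to 0.33 with a sample left out. Nuclear ADAR-201, single transcripts, had 0.0183 with DESeq2 size factors, 0.0346 with library size only, 0.0177 in DESeq2's test and -0.0362 to 0.0162 with a sample left out, with 0.0162 without control replicate 2 and 0.00991 without RNAi replicate 1.

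Same-numbered nuclear samples deviated together with correlations of 0.185, 0.11 and 0.042, so the replicate numbers were not taken to pair samples. Nuclear and cytoplasmic samples of the same number were not checked in this way. Fits without the block treated the fractions as independent. Every nuclear sample correlated best with its own number except RNAi replicate 3, which is a hint from the data only. With the replicate block the members called were 0, 3, 3, 1 and 2 in the order above, against 0, 2, 2, 1 and 2 without it, since IRF3 passed in the cytoplasm (0.52, FDR 0.0193) and for the ratio (-0.65, FDR 0.0223). The IFIT1 ratio had -0.0655 under the block, and the full-length transcript of STAT2 lost its cytoplasmic call (1.31, FDR 0.176).

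Over all genes, 792 nuclear calls became 512 with protein-coding transcripts, 174 and 22 in the limma fits, and 52 to 1071 with a sample left out (88 without control replicate 3, 256, 106 and 52 without RNAi replicate 1, 2 or 3). The 3983 cytoplasmic calls became 1495 and 1898 and the 2953 ratio calls 1074 and 1297 in the limma fits, and the ratio calls 1920 without control nuclear replicate 3 and 1957 without RNAi nuclear replicate 3. With protein-coding transcripts the 9350 calls between fractions in RNAi cells became 5776 and the 8217 in control cells 5163. Library size alone shifted the median of all genes by -0.24 in the cytoplasm and 0.23 in the ratio, and the share of calls that were higher from 42.1% to 11.9% and from 56.9% to 93.2%. IFIT2 and IFIT3 had too few counts to judge, as had the listed transcripts of IFIH1, and the intervals of IFIT1 were wide.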
